A study of Mus musculus with 25 samples.

Results

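The 10 genes described here are the core of the Notch pathway as it was measured in mouse mammary tumors and reference glands: the receptors Notch1, Notch2, Notch3 and Notch4, the ligands Jag1, Jag2 and Dll1, and the target genes Hes1, Hey1 and Heyl. They were taken by name, 1 probe set per gene, from 19937 genes measured on 25 single-colour Affymetrix arrays. Each of the 10 had 1 probe set that named no other gene. Values are log2 intensities, so a difference of 1 is a doubling, and levels were compared between arrays and never between genes.

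Tumors were collected from mice carrying a tamoxifen-inducible Cre recombinase (creERT2) and the oncogenic PIK3CA H1047R mutation, which keeps the growth-signalling enzyme PI3K active. The K8-creERT2/PIK3CA H1047R group (10 arrays) used the promoter of keratin 8, a keratin of luminal cells, and the Lgr5-creERT2/PIK3CA H1047R group (10 arrays) that of Lgr5, a receptor known as a stem cell marker. Reference glands came from mice labelled K8-creERT2 ctrl (2 arrays) and Lgr5-creERT2 ctrl (3 arrays), whose labels name the Cre and no PIK3CA. Both K8 groups were on a mixed FVB/CD1 background and both Lgr5 groups on a mixed FVB/C57/BL6 background, so the Cre line and the strain cannot be told apart. Tamoxifen was given at 7 to 8 weeks of age, per the labels, which do not say whether the controls also received it. The labels do not say whether tumors came from separate animals, so each p-value reflects no more than the scatter of these arrays, part of which may be technical, and the small number of gland arrays limits the precision.

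The arrays did not all carry the tissue markers that their labels imply, and they are called below by their labels. Lgr5 tumors 2, 6, 7, 8 and 9 had a mean adipocyte marker level (17 of 19 genes measured) of 12.23 to 12.53, against 7.96 to 11.31 in the other 13 tumor arrays left after the pair named next, and 7.83 to 9.71 in the glands. These 5 arrays also had a luminal epithelial mean of 9.03 to 9.82, against 10.70 to 11.18 in those 13, and a cell-cycle mean of 6.82 to 8.00 against 8.29 to 9.46. A second pair, K8 tumor 9 and Lgr5 tumor 10, had squamous markers (15 of 15 measured) at 9.93 and 10.09, within the gland range of 8.76 to 10.70 and above the 5.86 to 8.28 of those 13. The arrays labelled gland thus carried squamous markers themselves, above every tumor array outside that pair, and their cell-cycle mean was 9.42 to 9.97, against 6.82 to 9.55 in the tumors, so each tumor-gland difference is a difference from glands of that kind. No sample was regrouped, and results are given with and without the 5 fat-marker arrays and the squamous-marker pair. Pik3ca did not pass the test between tumors and glands in either line: the log2 difference was 0.14 ± 0.07 (SE; limma adjusted p = 0.15) for Lgr5 and 0.16 ± 0.08 (limma adjusted p = 0.225) for K8. All arrays are of bulk tissue, in which fewer cells of a type and less RNA per cell cannot be told apart.

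Notch signalling passes between touching cells. A Jagged or Delta ligand on one cell engages a Notch receptor on its neighbour, the receptor is cut by an ADAM protease and then by gamma-secretase, and the freed intracellular domain enters the nucleus, where it joins the DNA-binding protein Rbpj and a Mastermind co-activator to switch on Hes and Hey genes, which encode transcriptional repressors. In the mammary epithelium Notch activity is best known for its part in luminal cell fate, while Notch4 and the ligand Dll4 are known from vascular endothelium and Notch3 from pericytes and vascular muscle.

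Promoter windows were read from RefSeq (build GRCm38.p6; 250 bases before to 50 bases after the annotated start) for 7 of the 10 genes; Hes1, Hey1 and Heyl had no entry in that table. The Rbpj-binding word GTGGGAA, searched on both strands, was in a window of 0 of those 7 genes and of 7 of 37 other Notch pathway genes. Of all 32851 windows 6.38% held it. Here and in the next counts the first numbers are of genes and the share is of windows, which are unlike units. Its shorter core TGGGAA, contained in the longer word, was in 0 of 7, 13 of 37 and 25.6% of all. The word CACNAG, known as the N box bound by Hes proteins and searched on both strands, was in 4 of 7, 14 of 37 and 42.5% of all. Hey2 and Hes5, textbook Notch targets outside the 10 genes, are shown because both hold GTGGGAA or its reverse complement at a pair of places while their levels behaved differently (given below with the targets). Notch1 is shown because its 11 lowest arrays were the 11 lowest of Hey1. Capitals mark GTGGGAA on either strand in Hey2 (chr10:30842734-30843033, minus strand) and Hes5 (chr4:154960673-154960972, plus strand) and CACNAG on either strand in Notch1 (chr2:26503773-26504072, minus strand).
Hey2 promoter: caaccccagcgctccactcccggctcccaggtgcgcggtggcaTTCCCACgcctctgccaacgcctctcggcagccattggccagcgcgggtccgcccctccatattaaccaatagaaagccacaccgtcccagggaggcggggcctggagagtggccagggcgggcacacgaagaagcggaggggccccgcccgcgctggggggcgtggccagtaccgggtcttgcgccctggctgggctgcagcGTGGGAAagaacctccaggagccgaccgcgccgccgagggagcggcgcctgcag
Hes5 promoter: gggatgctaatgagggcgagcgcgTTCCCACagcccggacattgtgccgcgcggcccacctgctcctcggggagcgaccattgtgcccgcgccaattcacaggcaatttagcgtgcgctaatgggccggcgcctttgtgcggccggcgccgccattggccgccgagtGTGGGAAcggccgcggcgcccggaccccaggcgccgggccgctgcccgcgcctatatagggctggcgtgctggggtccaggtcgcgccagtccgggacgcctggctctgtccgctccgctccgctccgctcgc
Notch1 promoter: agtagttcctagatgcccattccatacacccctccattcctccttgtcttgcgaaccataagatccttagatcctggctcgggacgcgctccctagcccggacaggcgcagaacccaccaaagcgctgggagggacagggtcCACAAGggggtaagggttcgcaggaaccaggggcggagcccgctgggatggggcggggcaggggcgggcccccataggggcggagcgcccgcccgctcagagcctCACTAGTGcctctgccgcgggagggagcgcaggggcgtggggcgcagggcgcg
Counted from 1 at the 5′ end of each window, the matches in Hey2 span positions 44 to 50 and 247 to 253, those in Hes5 25 to 31 and 168 to 174, and those in Notch1 143 to 148, 248 to 253 and, overlapping it on the other strand, 250 to 255. A match describes the letters in the window and is not a measured binding site.

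Among the receptors, Notch1, Notch2 and Notch3 passed the test between the tumor groups, and Notch2 also passed between Lgr5 tumors and Lgr5 glands. None of the tumor-group calls held without the 5 fat-marker arrays, and the call against glands was lost in most fits that each left out 1 array. Notch1 (probe set 10481056), a receptor known for activating mutations in T-cell leukemia, ranged from 10.62 to 11.76 in K8 tumors with a median of 11.50. In Lgr5 tumors it ranged from 10.26 to 11.57 with a median of 10.72. The Lgr5 glands gave 10.74, 11.43 and 10.66 and the K8 glands 10.98 and 10.46. K8 tumors were therefore the high group, with K8 tumor 9 alone below 11, but the ranges of all 4 groups overlapped, and only the step from K8 tumors to Lgr5 glands exceeded the larger SD of the neighbouring groups.

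Notch2 (probe set 10494595), which shares the receptor architecture of Notch1, had the opposite order between the tumors: 9.61 to 10.10 (median 9.80) in K8 tumors and 9.80 to 10.37 (median 10.01) in Lgr5 tumors. Glands lay low and close together, at 9.83, 9.71 and 9.82 in the Lgr5 line and 9.80 and 9.63 in the K8 line. Its SD over the 25 arrays was 0.21, the smallest of the 10 genes. Within the Lgr5 tumors the highest Notch2 levels, 10.37 each, were in tumor 2, which carried the fat markers, and in tumor 1, which did not.

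Notch3 (probe set 10449775), known from pericytes and luminal progenitors, was 8.81 to 9.61 (median 9.38) in K8 tumors and 8.22 to 9.62 (median 8.61) in Lgr5 tumors. Its gland levels were 8.91, 9.34 and 8.78 in the Lgr5 line and 9.01 and 8.89 in the K8 line. The lowest Lgr5 tumors thus fell under every gland and every K8 tumor, while the highest, Lgr5 tumor 3, matched the highest K8 tumor. Pericyte and vascular muscle markers (9 genes) had a mean of 9.04 to 9.18 in the 5 fat-marker arrays and 8.47 to 9.17 in the 13 other tumors. It was 7.96 in K8 tumor 9, 8.33 in Lgr5 tumor 10 and 7.74 to 8.45 in the glands. Notch3 over the same sets was 8.22 to 8.67, 8.93 to 9.62, 8.81, 8.53 and 8.78 to 9.34. The part of these markers in its levels was not tested.

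Notch4 (probe set 10444352), the receptor known from endothelium, was 7.39 to 8.47 (median 7.96) in K8 tumors and 7.78 to 8.56 (median 8.28) in Lgr5 tumors. The Lgr5 glands gave 7.73, 7.87 and 7.70, and the K8 glands 7.52 and 7.73. All glands were at or under 7.87, below the median of either tumor group. Endothelial markers (15 genes) had a mean of 9.56 to 9.75 in the 5 fat-marker arrays, 8.76 to 9.55 in the 13 other tumor arrays, 7.97 and 8.57 in the squamous-marker pair and 7.84 to 8.38 in the glands. Notch4 over the same sets was 8.24 to 8.51, 7.78 to 8.56, 7.39 and 7.83, and 7.52 to 7.87, and the part of these markers in its levels was not tested.

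**Figure D1:**
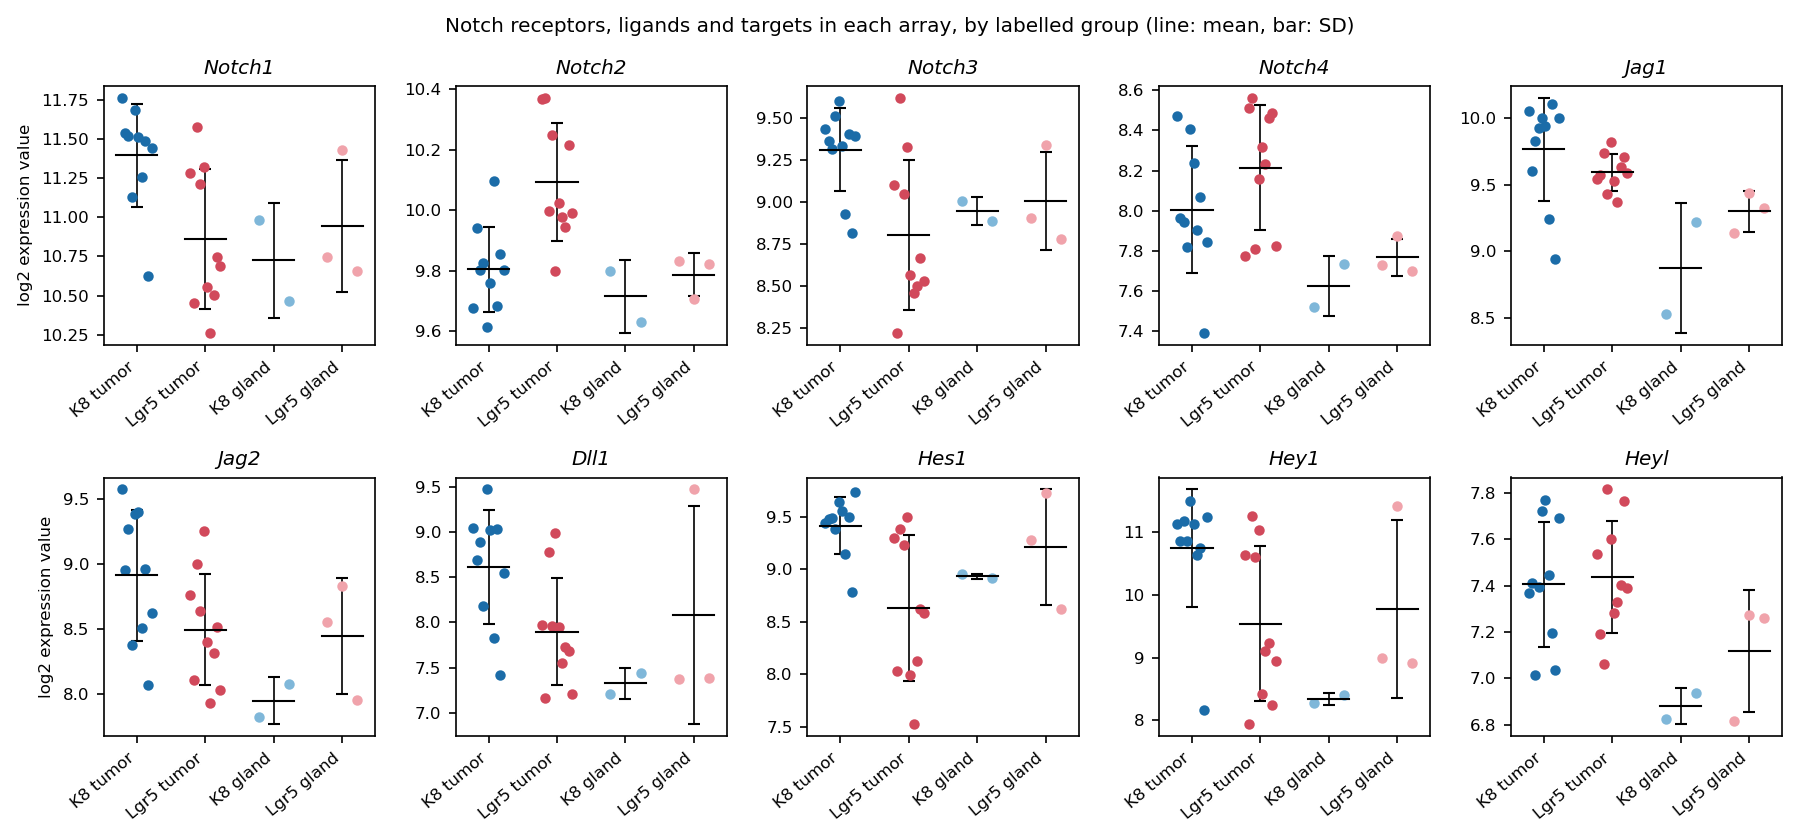
Log2 level (vertical axis) of each of the 10 Notch genes in the 25 arrays, 1 panel per gene with its own axis, 1 point per array by labelled group; bars are group means and error bars are 1 SD. Hey1 spreads over 3.56 log2 units and most K8 tumors sit at its top, while Notch2 spans 0.76.

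Of the ligands, Jag1 was higher in K8 tumors than in K8 glands. Its call rests on 2 gland arrays and was lost in a fit of these groups alone. Jag2 and Dll1 had higher values in K8 tumors without passing the test. Jag1 (probe set 10488060), the Jagged ligand mutated in Alagille syndrome, was 8.94 to 10.11 (median 9.94) in K8 tumors and 9.37 to 9.82 (median 9.58) in Lgr5 tumors. It was 9.14, 9.44 and 9.32 in the Lgr5 glands and 8.53 and 9.22 in the K8 glands. The lower K8 gland was the lowest of all 25 arrays, and only K8 tumor 9 lay under the higher K8 gland. Lgr5 tumors exceeded Lgr5 glands by 0.29, more than the larger SD of 0.15, although the ranges overlapped and the difference did not pass (limma adjusted p = 0.301).

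Jag2 (probe set 10402808), the second Jagged ligand, was 8.07 to 9.58 (median 8.96) in K8 tumors and 7.93 to 9.26 (median 8.46) in Lgr5 tumors. The Lgr5 glands gave 8.55, 8.83 and 7.95 and the K8 glands 7.82 and 8.08. In each line the lowest tumor lay under the highest gland, so tumor and gland ranges overlapped.

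Dll1 (probe set 10448034), a Delta ligand, was 7.42 to 9.47 (median 8.79) in K8 tumors and 7.16 to 9.00 (median 7.84) in Lgr5 tumors. Its glands split apart: Lgr5 gland 2 was at 9.47, the level of the highest K8 tumor, while Lgr5 glands 1 and 3 were at 7.37 and 7.39 and the K8 glands at 7.21 and 7.44. Lgr5 gland 2 was the highest of the 5 glands for 9 of the 10 genes, and K8 tumor 9 was the lowest of the K8 tumors for 8 of the 10.

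Of the targets, Hey1 had the widest spread, also the widest of all 10 genes, and Heyl the narrowest. Hes1 passed the test between the tumor groups, but not without the 5 fat-marker arrays. Hes1 (probe set 10434925), a bHLH repressor induced by Notch in many tissues, was 8.78 to 9.74 (median 9.48) in K8 tumors and 7.53 to 9.49 (median 8.60) in Lgr5 tumors. The Lgr5 glands gave 9.28, 9.72 and 8.63, and the K8 glands 8.95 and 8.92. The 4 lowest arrays, at 7.53 to 8.13, were Lgr5 tumors 7, 6, 2 and 8, all with high adipocyte markers, and every other array was at 8.58 or higher.

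Hey1 (probe set 10497203), a bHLH repressor of the Hairy/Enhancer-of-split-related family, was 8.17 to 11.49 (median 11.00) in K8 tumors and 7.94 to 11.27 (median 9.17) in Lgr5 tumors. It was 9.00, 11.41 and 8.92 in the Lgr5 glands and 8.28 and 8.41 in the K8 glands. From the lowest to the highest array Hey1 changed 11.8-fold, and its SD of 1.27 exceeded that of 98.1% of all genes. No array lay between 9.24 and 10.60. Below that gap were 11 arrays: the 5 fat-marker Lgr5 tumors, the squamous-marker pair, both K8 glands and Lgr5 glands 1 and 3. Above it were 14: the 9 other K8 tumors, Lgr5 tumors 1, 3, 4 and 5, and Lgr5 gland 2. The mean of 12 basal and myoepithelial markers, picked from several marker lists after the values were seen, split the arrays in the same way. It was at 9.90 or under in the 11 and at 10.19 or over in the 14, and its part in the Hey1 levels was not tested. The luminal epithelial, squamous, adipocyte and cell-cycle means did not split the arrays so.

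The same 11 arrays held the 11 lowest levels of Notch1, at 10.98 or under against 11.13 or over in the other 14. They also held the 11 lowest levels of Hey2, the paralog of Hey1, at 6.87 or under against 8.97 or over. Dll1 had 10 of the 11 below every one of the other 14, as did Notch3 and Hes1, and Jag2 had 8. Notch4 had 5, Jag1 4, Heyl 3 and Notch2 0. The 11 arrays were set by the levels of Hey1 itself and also differ from the other 14 in their tissue markers. The share of all genes that separate the same arrays was not counted, so these counts are not read as particular to Notch genes. Hey2 ranged from 5.69 to 10.68 and was named after its values were seen, as was Nrarp, a Notch-induced feedback inhibitor, which ranged from 6.91 to 10.02. Hes5, whose printed promoter holds the same word as that of Hey2 at a pair of places, stayed between 6.92 and 7.29 in all 25 arrays.

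Heyl (probe set 10507840), the third Hey family member and known from vascular muscle, was 7.01 to 7.77 (median 7.40) in K8 tumors and 7.06 to 7.82 (median 7.40) in Lgr5 tumors. The Lgr5 glands gave 6.81, 7.28 and 7.26, and the K8 glands 6.82 and 6.94. The tumor groups were alike in their medians, and both K8 glands lay below every tumor.

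**Figure D2:**
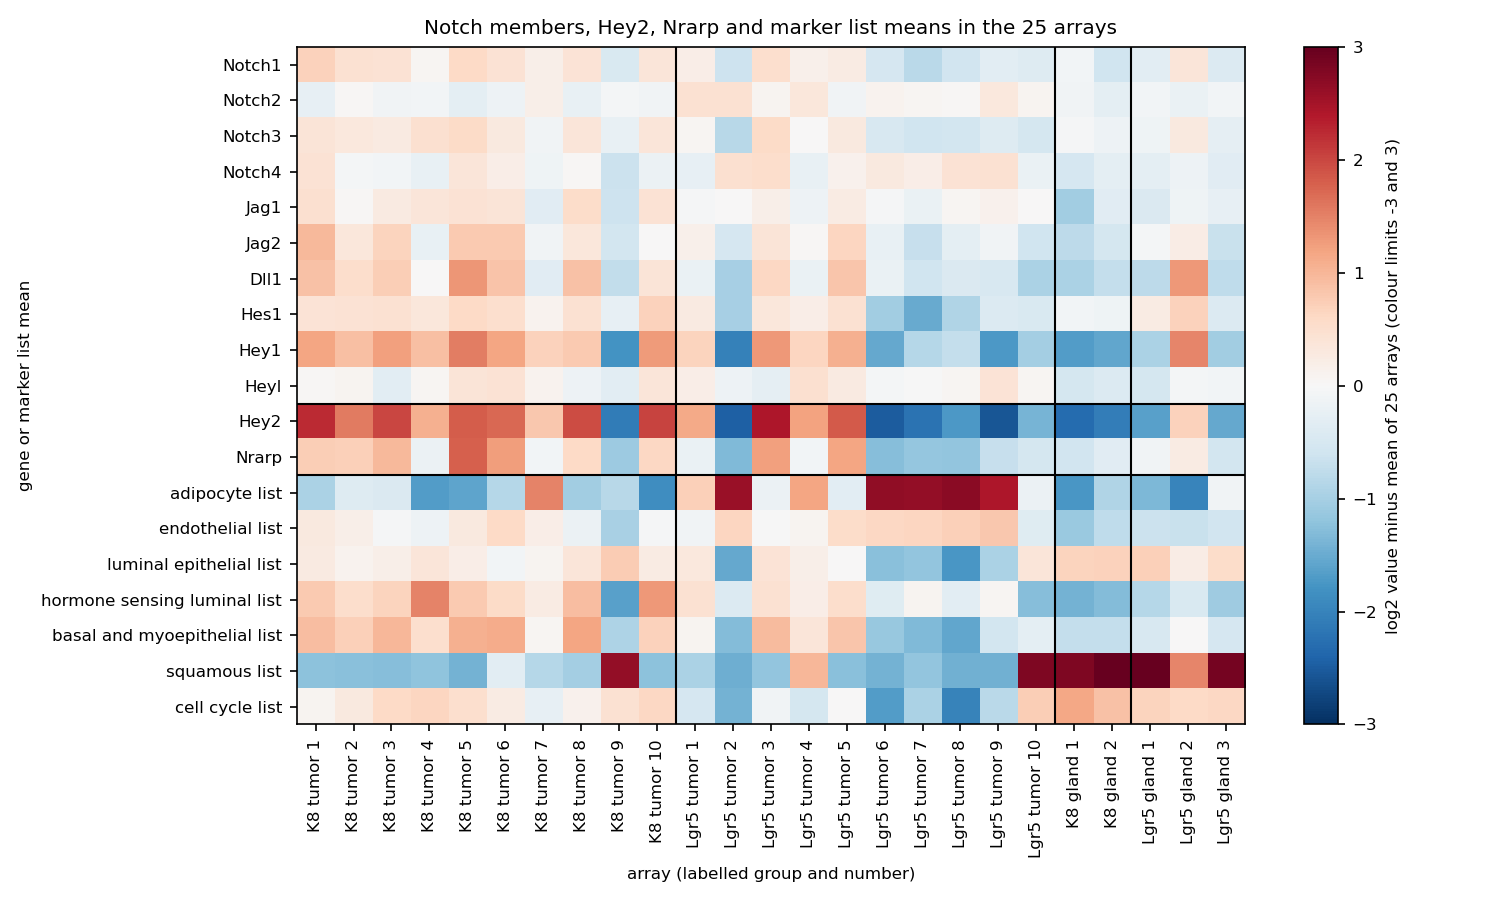
Log2 level of the 10 Notch genes, Hey2, Nrarp and the means of 7 marker lists (rows) in each of the 25 arrays (columns, by labelled group), coloured by the difference from the row's mean over all arrays, with colours capped at −3 and 3. Of the 10 genes Hey1 differs most between arrays, from 7.94 in Lgr5 tumor 2 to 11.49 in K8 tumor 5, and Notch2 least.

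Between K8 tumors and K8 glands, all 10 genes had a fitted difference above 0, with a median of 0.60 on the log2 scale against −0.01 over all genes tested, and 1 passed the test. The comparison asks what differs in tumors of the K8 line from glands of that line. Over all genes 9.1% passed in either direction and 3.42% were higher (limma, Benjamini-Hochberg adjusted p under 0.05), so 1 of 10 is near the background. Jag1 rose by 0.89 ± 0.22 (SE; limma adjusted p = 0.0206), or 1.85-fold. That call rests on 2 glands that differ: the difference was 0.55 without K8 gland 1 and 1.24 without K8 gland 2. With 1 gland left, its scatter is assumed to be like that of the other groups, and few of all genes passed. The loss of the call in those fits is therefore not particular to Jag1. In the other 23 fits that each left out 1 array Jag1 kept its call. In a fit of these groups alone Jag1 did not pass and Hey1 did. Hey1 had the largest fitted difference, 2.40 ± 0.83 (limma adjusted p = 0.0698), or 5.29-fold with a 95% interval of 0.69 to 4.12 on the log2 scale.

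The count for that comparison moved with K8 tumor 9, the K8 tumor with squamous markers. Without it and Lgr5 tumor 10, 5 of the 10 genes passed, where the share of all genes that passed also rose, from 9.1% to 19.9%. They were Jag1 at 0.98 (limma adjusted p = 0.000531), Hey1 at 2.69 (0.0119), Jag2 at 1.06 (0.0215), Heyl at 0.57 (0.0378) and Dll1 at 1.42 (0.0396). With K8 tumor 9 included, Jag2 was at 0.97 ± 0.34 (limma adjusted p = 0.0776), Heyl at 0.52 ± 0.19 (0.0816) and Dll1 at 1.29 ± 0.51 (0.112). Beside these, 5 of 12 basal, 5 of 15 endothelial, 7 of 11 fibroblast and 4 of 7 hormone-sensing luminal markers rose and 13 of 15 squamous markers fell in K8 tumors, and their part in the Notch differences was not tested. The receptors Notch1 (0.67 ± 0.30), Notch2 (0.09 ± 0.12), Notch3 (0.36 ± 0.26) and Notch4 (0.38 ± 0.22) did not pass, nor did Hes1 (0.48 ± 0.39).

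Between Lgr5 tumors and Lgr5 glands, 5 of the 10 genes had a difference above 0, the median was −0.02 and 1 gene passed, where 15.9% of all genes passed and 5.28% were higher. The comparison asks the same question in the Lgr5 line. Notch2 rose by 0.31 ± 0.10 (SE; limma adjusted p = 0.0471). That call was lost in 18 of 25 fits that each left out 1 array, over which the difference stayed between 0.27 and 0.34 and the adjusted p between 0.0244 and 0.164. Several of those 18 left out a K8 array, which kept the difference at 0.31 and moved only the shared spread and the adjustment. Without the 5 fat-marker arrays the Notch2 difference was 0.29 (limma adjusted p = 0.181), in a fit where 1 of all 19937 genes passed. With the adipocyte mean added to the model it was 0.15 (0.572), where 0 did. Notch4 had the largest receptor difference, 0.45 ± 0.19, and did not pass (limma adjusted p = 0.104); it passed without the squamous-marker pair, at 0.49 (0.0307), when 27% of all genes passed.

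Hes1 and Hey1 had negative differences in this comparison, −0.58 ± 0.33 and −0.24 ± 0.70, and neither passed (limma adjusted p = 0.235 and 0.861). Without the 5 fat-marker arrays Hey1 was at 0.72 and Notch1, Notch3 and Dll1 also turned above 0, and without Lgr5 gland 2 Hey1 was at 0.58. In the same comparison 14 of 17 adipocyte and 12 of 15 endothelial markers rose, and 14 of 15 squamous and 12 of 14 cell-cycle markers fell. The part of the endothelial, squamous and cell-cycle markers in the Notch2 difference was not tested.

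Between the tumor groups, 4 of the 10 genes passed, 3 of them higher in K8 tumors, where 21.3% of all genes passed, 12.3% higher and 9% lower. The comparison asks how tumors of the K8 line differ from those of the Lgr5 line. Hes1 was higher in K8 tumors by 0.78 ± 0.22 (SE; limma adjusted p = 0.0212), Notch1 by 0.53 ± 0.17 (0.0322) and Notch3 by 0.51 ± 0.15 (0.0242). Notch2 was lower in K8 tumors, at −0.29 ± 0.07 (limma adjusted p = 0.0144). The median over the 10 genes was 0.46, against 0.01 over all genes. Hey1, at 1.20 ± 0.48, and Dll1, at 0.72 ± 0.29, did not pass (limma adjusted p = 0.0741 and 0.0839).

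None of these 4 calls held without Lgr5 tumors 2, 6, 7, 8 and 9, when no gene of the array passed and 1 of the 10 had an unadjusted p under 0.05 (limma). Hes1 was then at 0.22 (limma adjusted p = 0.736), Notch1 at 0.18 (0.781) and Notch3 at 0.19 (0.743). Notch2 kept most of its size, at −0.27, with an adjusted p of 0.532 (limma). With the adipocyte mean added to the model again 0 of all genes passed, with Hes1 at 0.026, Notch1 at 0.072, Notch3 at 0.0018 and Notch2 at −0.15 (limma adjusted p = 0.9998 each). With 1 array left out at a time, Notch1 lost its call in 8 of 25 fits and Notch3 in 3, and Hes1 and Notch2 kept theirs in all 25. Between the tumor groups 16 of 17 adipocyte markers were lower in K8 tumors and 14 of 14 cell-cycle, 8 of 12 luminal and 5 of 12 basal markers were higher, and the part of the cell-cycle, luminal and basal markers was not tested.

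**Figure D3:**
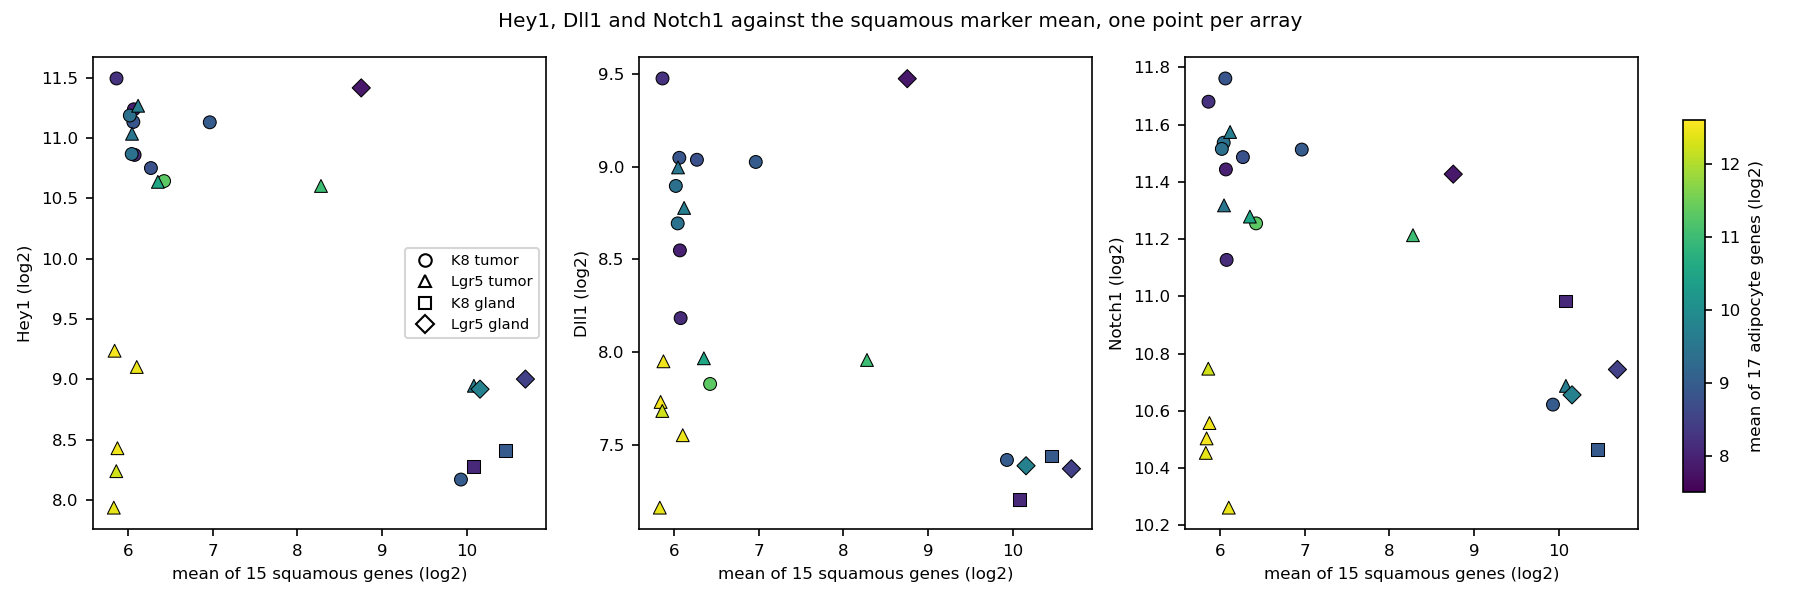
Log2 level of Hey1, Dll1 and Notch1 (vertical axes, 1 panel each) against the mean log2 level of the 15 squamous genes (horizontal axis), 1 point per array, with shape for the labelled group and colour for the mean log2 level of 17 adipocyte genes. The 5 Lgr5 tumor arrays with adipocyte means of 12.23 to 12.53 lie at Hey1 levels of 7.94 to 9.24, and Lgr5 gland 2, at a squamous mean of 8.76, lies apart from the other 4 glands with Hey1 at 11.41.

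The tumor-gland difference was itself compared between the lines, K8 minus Lgr5. No gene among the 10, and 0% of all genes, passed at the limma adjusted threshold; 3 of the 10 had an unadjusted p under 0.05 (limma), against 883 of all 19937. Those 3 were Hey1 at 2.64 ± 1.09, Dll1 at 1.47 ± 0.67 and Hes1 at 1.06 ± 0.51, each with a limma adjusted p of 0.781. The calls of Jag1 in one line and Notch2 in the other are therefore not shown to differ between the lines.

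**Figure D4:**
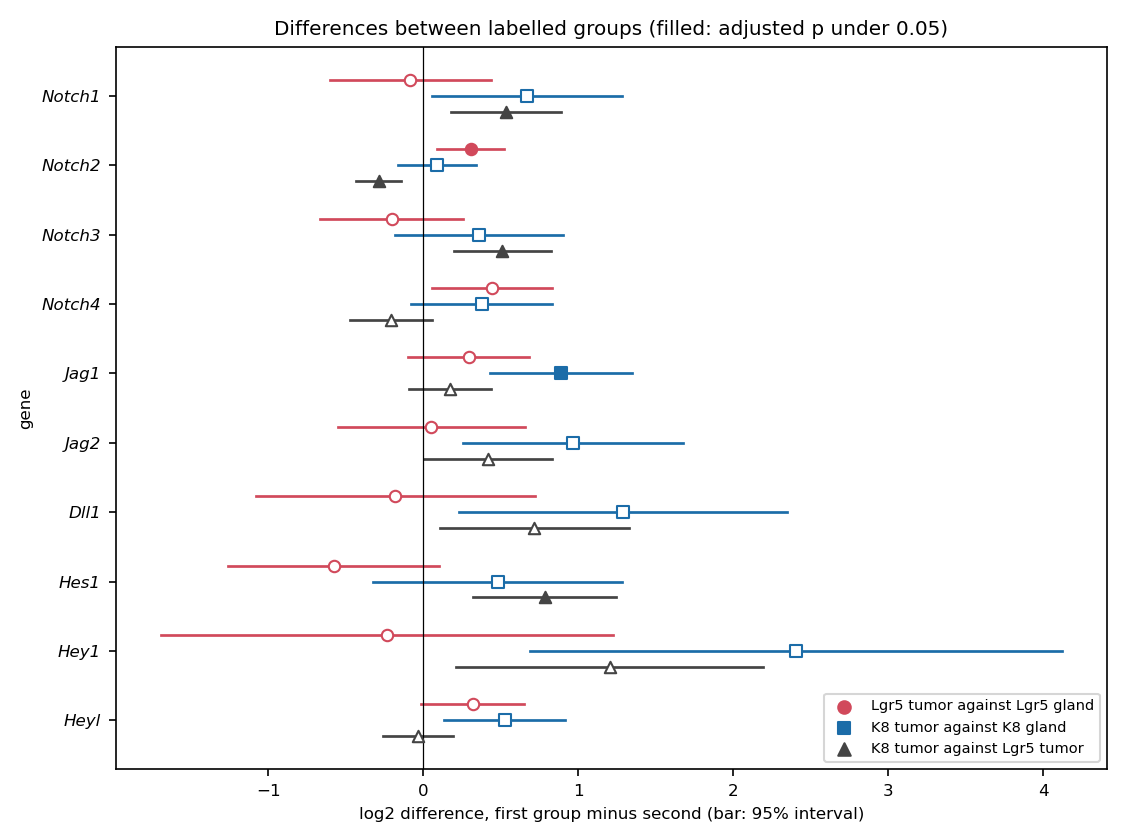
Fitted log2 difference (horizontal axis) of each Notch gene in the comparisons of tumor with gland in each line and of K8 with Lgr5 tumors; points are limma estimates, filled where the adjusted p is under 0.05, and bars are 95% intervals. All 10 estimates of K8 tumors against K8 glands lie above 0, from 0.09 for Notch2 to 2.40 for Hey1.

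Of 44 other genes of the pathway 42 were measured, and they were counted in each direction. Between K8 tumors and K8 glands 2 rose and 0 fell, where 3.42% of all genes rose and 5.69% fell. They were Dtx3, a Deltex-family protein, by 1.20 ± 0.27 (limma adjusted p = 0.0161), and Numbl, a relative of the Notch inhibitor Numb, by 0.84 ± 0.23 (0.0283). Hey2 had a larger difference, 3.50 ± 1.21, and did not pass (limma adjusted p = 0.0708). The median of the 42 was 0.04.

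Between Lgr5 tumors and Lgr5 glands 3 of the 42 rose and 5 fell, where 5.28% of all genes rose and 10.6% fell, so both counts are near the background. Numbl rose by 0.75 ± 0.19 (limma adjusted p = 0.0175), Psen2, a catalytic gamma-secretase subunit, by 0.80 ± 0.26 (0.0395) and Lfng, a Fringe sugar transferase chosen after its values were seen, by 0.45 ± 0.15 (0.0440). Of the receptor-cleaving genes, Adam17, a protease, fell by 0.49 ± 0.12 (limma adjusted p = 0.0130) and Aph1a, a gamma-secretase subunit, by 0.28 ± 0.09 (0.0380). Fbxw7, the ubiquitin ligase subunit that marks the Notch intracellular domain for degradation, fell by 0.32 ± 0.09 (limma adjusted p = 0.0221), and Maml3, a Mastermind co-activator, by 0.88 ± 0.25 (0.0238). Hes6, a Hes relative, fell by 0.54 ± 0.17 (limma adjusted p = 0.0385). Without the 5 fat-marker arrays 0 of the 42 passed, with 1 of all 19937 genes passing, and 10 of the 42 had an unadjusted p under 0.05 (limma).

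Between the tumor groups 9 of the 42 were higher in K8 tumors and 4 lower, where 12.3% of all genes were higher and 9% lower. Numb was higher by 0.28 ± 0.06 (limma adjusted p = 0.0124), Adam10, the protease of the first receptor cut, by 0.54 ± 0.14 (0.0165) and the co-activator Crebbp by 0.14 ± 0.04 (0.0277). Mfng, the Fringe transferase that like Lfng tunes which ligand a receptor answers, was lower at −1.42 ± 0.42 (limma adjusted p = 0.0239). Psen2 was lower at −0.73 ± 0.18 (limma adjusted p = 0.0140), and Dtx2, a Deltex protein, at −0.67 ± 0.16 (0.0137). The fourth lower gene, chosen after its values were seen, was the acetyltransferase Kat2b at −0.33 ± 0.10 (limma adjusted p = 0.0319). Mfng was at 9.90 to 10.36 in the 5 fat-marker arrays and at 8.41 or under in all 20 others, and Psen2 at 8.94 to 9.56 against 8.33 or under. Without those 5 arrays 0 of the 42 and 0 of all genes passed, with 3 of the 42 at an unadjusted p under 0.05 (limma).

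The genes most like the members with an SD of at least 0.5 were found as those with the smallest mean absolute difference over the 25 arrays, after each gene was centred on its own mean. Among the genes most like Hey1 were Papln (0.257 log2 units), an extracellular matrix protein, and Homer2 (0.306), a scaffold protein, where its own mean absolute deviation was 1.19. From Hey1 to other Notch genes the distance was 0.580 to Nrarp, 0.583 to Dll1, 0.671 to Hey2 and 0.779 to Notch1. The most alike genes are the smallest distances out of nearly all genes measured, so distances to genes chosen by name are not weighed against them. Unlike spread also adds to this distance, with an SD of 1.27 for Hey1, 1.91 for Hey2 and 0.46 for Notch1. Hes1 was most like Tanc2 (0.158), Agrn (0.170), which encodes the proteoglycan agrin, and Zfp827 (0.175). Dll1 was most like Psd2 (0.228), the ErbB ligand gene Nrg2 (0.228) and the histone deacetylase Hdac11 (0.232). Jag2 was most like Csgalnact2 (0.171), an enzyme of chondroitin sulfate synthesis, Art4 (0.182) and Plxdc2 (0.186). All arrays enter these distances, those that stand apart in their markers included.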

How the data were processed

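Total RNA from tumors and glands was extracted with Trizol, and 100 ng per sample was amplified and labelled for Affymetrix arrays, per the labels' protocols. The value table holds 34760 probe sets on 25 arrays. Its deposited log2 intensities (4.13 to 13.9; array medians 6.34 to 6.43) were made by the authors with affy, per the submitters' processing notes; the log base was taken from the range of the values, and no source used here gives the background correction or normalization. No further normalization was applied. Amplification and any between-array normalization can compress differences.

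Platform annotation gave 21640 probe sets 1 symbol, 1321 several and 11799 none; 21553 matched a current gene identifier. For 954 symbols with several probe sets the one with the highest mean was kept, leaving 19937 genes. Of Notch4, 4 probe sets shared with another gene were not used. One linear model with the 4 groups, over all 25 arrays, was fitted with limma 3.58.1 (R 4.3.3; lmFit, eBayes), with Benjamini-Hochberg adjustment over all genes and a threshold of 0.05; errors of differences are SEs. The script was tested on simulated data. No arrays were identical.

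The members, gene lists and tests were chosen with earlier results of these data known. Named are the 10 genes; of the other pathway genes, up to 6 per comparison with the smallest adjusted p under 0.05; the 3 most alike genes of members with an SD of at least 0.5, of which 1 is not reported here; and exceptions marked in the text. Alternatives were quantile normalization, probe set averages, a filter on dim genes, only the groups compared, a replicate block, array weights, eBayes with trend and robust settings and leaving out each array; fits without the doubted arrays, or with the adipocyte mean added to the model, were added after seeing the data. Python 3.11.15 with pandas 2.3.3 and matplotlib 3.10.9 was used for descriptions and plots.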

Additional observations from a re-analysis of the deposited data

Results flagged for a closer look

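Levels of the 24 named pathway genes were examined for a single array far from the rest of its group. Each gene was looked at in both tumor groups of 10 arrays, which made 48 looks. For a single look chance gives such a gap in about 1 in 20. The genes vary together and many were named for their tests in these data, so the number found is not set against that rate. The share of all genes with such a gap was not counted. Among the 48 looks 10 gaps were found, 6 of them in K8 tumor 9. In that array Hey1 was at 8.17, with the nearest K8 tumor at 10.64, and Hey2 was at 6.18, with the nearest at 9.07. Dtx3 was also low there, at 7.17 against 8.02. It was above the other K8 tumors for Adam17 at 10.51 (nearest 10.11), Hes6 at 9.20 (nearest 8.90) and Maml3 at 9.32 (nearest 8.58). The mean of the squamous markers in the same array was 9.93.

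K8 tumor 7 held the other 4. Mfng was at 8.41 there, with the nearest K8 tumor at 7.57, Dtx2 at 8.12 (nearest 7.85) and Psen2 at 8.28 (nearest 8.01). Fbxw7 was low, at 6.83 against 7.06. The mean of the adipocyte markers in the same array was 11.31, the highest of the K8 tumors, and its part in these levels was not tested.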

How the results depend on the processing

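The counts of called genes among the 10 were 1 for Lgr5 tumors against glands, 1 for K8 tumors against glands, 4 between the tumors and 0 for the difference between lines; among the 42 other pathway genes they were 8, 2, 13 and 0. Quantile normalization and averaged probe sets left the call of every one of the 10 genes in place. With array weights the 10 gave 2, 8 and 7 and the 42 gave 22, 18 and 24, where 39.2%, 31.8% and 40.1% of all genes passed. With only the groups compared, Lgr5 tumors against glands gave 0 of the 10 (3 at unadjusted p under 0.05, limma) and 2 of the 42, and K8 tumors against glands gave 5 of the 42 (3.46% and 14.3% of all genes). With trend and robust eBayes, Lgr5 tumors against glands gave 0 of the 10 (2 unadjusted), where 15.2% of all genes passed. With genes above the median gene, K8 tumors against glands gave 2 and 5 (15.7% of all genes). With the replicate block, K8 tumors against glands gave 2 and 6 (7.12% of all genes) and Lgr5 tumors against glands 3 of the 42 (8.71%); Hey1 and Notch1 in that comparison turned to 0.12 and 0.14, and every called member kept its call under the block. Same-number K8 and Lgr5 tumors correlated at −0.15 to 0.51 in their deviations from the group means, over 0.1 for 4 of 10 pairs, and 1 of 10 K8 tumors correlated best with its own number, so the numbers were not treated as pairs.

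Without the 5 fat-marker arrays, Lgr5 tumors against glands gave 0 (1 unadjusted) and 0 (10), K8 tumors against glands 2 and 6, and the tumors 0 (1) and 0 (3), where 0.00502%, 12.8% and 0% of all genes passed. Without the squamous-marker pair, Lgr5 tumors against glands gave 2 and 16 and K8 tumors against glands 5 and 13 (27% and 19.9% of all genes). Without all 7, Lgr5 tumors against glands gave 0 (3), K8 tumors against glands 7 and 14, and the tumors 0 (1) and 0 (5) (18%, 26.8% and 0%). With the mean adipocyte level added as a covariate, Lgr5 tumors against glands gave 0 (1) and 0 (10), K8 tumors against glands 5 and 7, and the tumors 0 (0) and 0 (1) (0%, 14.8% and 0%). Leaving out 1 array gave 0 to 1 of the 10 and 0 to 14 of the 42 for Lgr5 tumors against glands (1.26% to 25% of all genes). Between the tumors it gave 2 to 6 and 4 to 19 (11.5% to 28.6%). For K8 tumors against glands the fit without K8 tumor 9 gave the most, 5 and 11 (17%). Without either K8 gland the lone gland left is assumed to vary like the other groups, and no count is given. The difference between lines gave 0 of the 10 and 0 of the 42 in every fit.

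Signs turned in Lgr5 tumors against glands as follows. Dll1 was 0.14 with array weights, 0.10 without the 5, 0.35 without the 7 and 0.57 with the covariate. Hey1 was 0.72, 1.11 and 1.16 in those last fits, Notch1 0.27, 0.40 and 0.45, and Notch3 0.12, 0.27 and 0.38. Hes1 was 0.14 without the 7 and 0.29 with the covariate. Between the tumors the covariate gave Hey1 −0.014 and Jag1 −0.038, and Heyl was 0.0036 without the pair. For the difference between lines Notch4 was 0.12, 0.14 and 0.035. Leaving out 1 array spanned −0.23 to 0.16 for Notch1, −0.20 to 0.24 for Jag2, −0.53 to 0.52 for Dll1 and −0.66 to 0.58 for Hey1 in Lgr5 tumors against glands, −0.074 to 0.011 for Heyl between the tumors and −0.17 to 0.038 for Notch4 between lines. The cause of these changes was not tested. The 2 and 3 gland arrays limit both comparisons with glands, and array intensities give no counting depth.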
